A study of Mus musculus with 12 samples.

Results

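The response of 3T3-L1 cells to a mixture of the inflammatory cytokines IL-17A, IL-1β, and TNF-α (Inf) was examined across all expressed genes by comparing the 3 Inf libraries with the 3 control libraries, which are 6 of the 12 bulk RNA-seq libraries of the study. 3T3-L1 is a mouse embryonic fibroblast line that can be differentiated into adipocytes. The control cells received no cytokine, and the mixture given to the Inf cells held 20 ng/mL of TNF-α, 50 ng/mL of IL-17A, and 0.5 ng/mL of IL-1β, with RNA taken 24 hours after the start of culture in each condition. In the remaining 6 libraries the cells were cultured with IL-4 and IL-13 at 50 ng/mL each (IL-4/13), with or without the same Inf mixture, and these 6 libraries served as a second comparison that shares no library with the first. All libraries come from a single cell line, and the sources used here do not say whether libraries of a condition came from separate cultures, so the p-values measure only the spread between these libraries, which may be technical. In bulk RNA, fewer cells expressing a gene and less RNA per cell cannot be told apart.

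TNF-α signals through Tnfrsf1a and Tnfrsf1b, IL-1β through a receptor of Il1r1 and Il1rap, and IL-17A through Il17ra and Il17rc. Their adaptors converge on IκB kinases, which release the transcription factor NF-κB from its inhibitors, the IκB proteins, and on MAP kinases that act on AP-1. Targets of NF-κB include chemokines, cytokines, acute phase genes, and several of its own inhibitors, and IL-17A is known mainly for prolonging this response, with IκBζ (Nfkbiz) and C/EBP factors as mediators. Fibroblasts in skin and other tissues are an established source of leukocyte-attracting factors during inflammation and the main producers of collagen.

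Inf upregulated 2420 of 14810 tested genes (16.3%) and downregulated 2266 (15.3%), and large rises outnumbered large falls. A gene was called at a Benjamini-Hochberg adjusted p below 0.05 in edgeR's quasi-likelihood test and a log2 fold change beyond 0.25, and every log2 fold change below is Inf minus control. SE is the size of the log2 fold change divided by the square root of the test's F statistic. For genes with few counts in a group, this SE understates the error of the fold change. Among the called genes, 786 rose and 309 fell more than 2-fold, 293 rose and 72 fell more than 4-fold, and 106 rose and 3 fell more than 16-fold. The median log2 fold change of all tested genes was 0.01. For 2326 of the upregulated and 2194 of the downregulated genes, no Inf library overlapped any control library, against 7113 (48.0%) of all tested genes. In control, the upregulated genes held 11.3 to 11.5% of the counts and the downregulated genes 23.2 to 23.5%. With Inf, these shares were 20.1 to 20.8% and 16.2 to 16.8%.

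**Figure D1:**
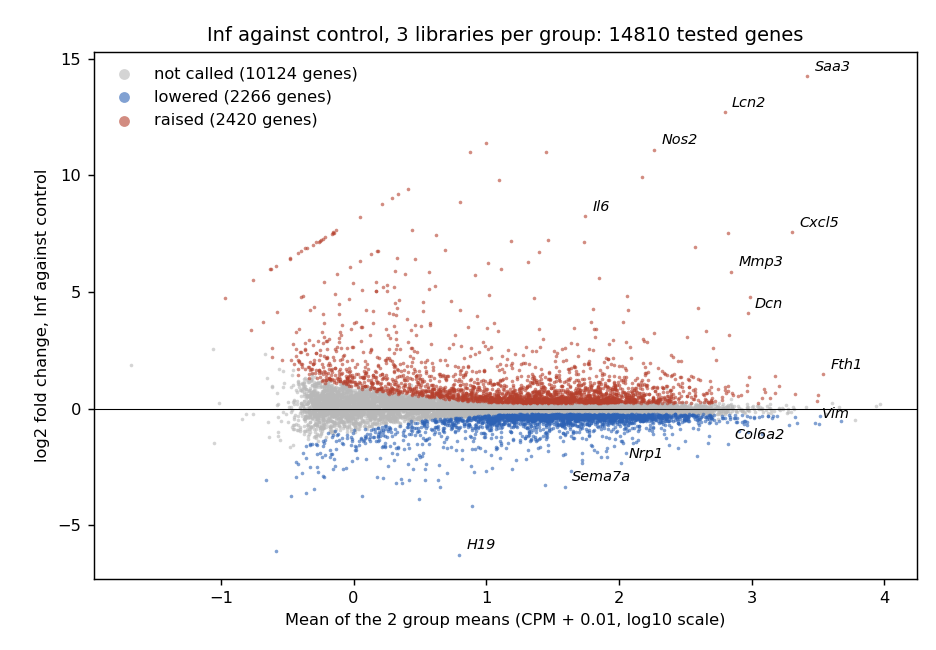
Log2 fold change of Inf against control (y axis) against the mean of the control and Inf levels in CPM on a log10 scale (x axis) for the 14810 tested genes, with 3 libraries per group. The 2420 upregulated genes are red, the 2266 downregulated genes are blue, and the uncalled genes are gray. Rises reach a log2 fold change of 14.27 (Saa3), and falls reach −6.26 (H19).

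Depth was similar in both groups, with 15869141 to 17343972 counts per control library and 15178479 to 20775769 per Inf library. Values for single genes are CPM, read counts scaled to a common library size after TMM normalization, for which the factors of these 6 libraries were 0.989 to 1.02. In a principal component analysis of the 6 libraries, the first component separated Inf from control and held 74.8% of the variance, and the second held 7.94%. Among libraries of the same group, Inf replicate 3 stood farthest from its replicates (chi-square per degree of freedom of 8.21 to 8.58 in its pairs against 2.97 to 4.64 in the other pairs of these groups). Without it, 2385 genes rose and 2296 fell. Of the 224 genes that the rule for naming selected, 204 were called, and 197 of these kept their call and direction under every alternative in which they were tested, including the omission of each library.

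Among genes that averaged 5 CPM or more in either group, the 12 largest rises were in acute phase proteins, cytokines, chemokines, the inducible nitric oxide synthase, and a sterol hydroxylase. Saa3, an acute phase serum amyloid, had 0.40, 0.25, and 0.12 CPM in control and 5628, 4829, and 5276 CPM with Inf (log2 fold change 14.27, SE 0.19, adjusted p = 6.4e-13). Lcn2, which encodes the iron-scavenging antibacterial protein lipocalin 2, had 0.11, 0.31, and 0.12 CPM in control and 1290.2, 1193, and 1272 CPM with Inf (log2 fold change 12.71, SE 0.11, adjusted p = 7.1e-35). Both genes were near the limit of detection in every control library and among the abundant transcripts in every Inf library. Nos2, the inducible nitric oxide synthase, had 0.11, 0, and 0.36 CPM in control and 416, 354, and 331 CPM with Inf (log2 fold change 11.10, SE 0.21, adjusted p = 5.3e-14), and Hp, the hemoglobin-binding protein haptoglobin, had 0.29, 0.25, and 0.36 CPM in control and 331, 289, and 280.4 CPM with Inf (log2 fold change 9.94, SE 0.16, adjusted p = 2.4e-21). Il6, the cytokine that drives the hepatic acute phase response, had 0.51, 0.12, and 0.42 CPM in control and 109, 105, and 117 CPM with Inf (log2 fold change 8.24, SE 0.14, adjusted p = 1.3e-28). No control library overlapped an Inf library for any of the 5 genes. All 5 had few counts in control, so each SE understates the error of the fold change.

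The other 7 of these 12 genes had 3 or fewer counts in each control library, so their fold changes are lower bounds set by 3 counts per library, which cover counting error only. Il1a, which encodes IL-1α, had 56.8, 54.7, and 57.5 CPM with Inf and was at least 314-fold higher than control. The granulocyte-macrophage colony-stimulating factor Csf2 had 25.9, 22.2, and 26.0 CPM with Inf (at least 138-fold higher), and the granulocyte colony-stimulating factor Csf3 had 16.1, 12.9, and 16.2 CPM (at least 84.2-fold higher). Thus 3 hematopoietic and inflammatory cytokines went from undetected or nearly so to a narrow range of levels in the 3 Inf libraries. The chemokine Ccl3 had 20.004, 18.3, and 21.2 CPM with Inf (at least 111-fold higher), Ccl20, the ligand of CCR6, had 4.98, 5.02, and 6.55 CPM (at least 30.8-fold higher), and the neutrophil chemokine Cxcl3 had 5.38, 4.92, and 5.09 CPM (at least 28.6-fold higher). Ch25h, the cholesterol 25-hydroxylase that makes 25-hydroxycholesterol, had 13.6, 11.6, and 12.6 CPM with Inf (at least 70.2-fold higher). In all, 88 upregulated genes had 3 or fewer counts in every control library, and 9 downregulated genes had 3 or fewer in every Inf library.

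The 12 largest falls by the same rule included genes with roles in adhesion, guidance, and the matrix. H19, an imprinted long noncoding RNA, had 13.7, 11.7, and 11.8 CPM in control and 0, 0.097, and 0.36 CPM with Inf (log2 fold change −6.26, SE 0.32, adjusted p = 2.6e-16). Sema7a, a membrane-anchored semaphorin, had 67.9, 71.4, and 73.8 CPM in control and 5.52, 8.04, and 6.91 CPM with Inf (log2 fold change −3.36, SE 0.10, adjusted p = 3.8e-21), and the matrix protein gene Spon2 had 49.4, 50.4, and 51.3 CPM in control and 4.05, 5.70, and 5.52 CPM with Inf (log2 fold change −3.29, SE 0.10, adjusted p = 1.1e-21). Every Inf library lay well below every control library for these 3 genes. Itgbl1, an integrin β-like protein, fell from 75.1 ± 3.46 CPM in control to 11.6 ± 0.34 CPM with Inf (SD, n = 3 each). The other 8 of the 12 largest falls had log2 fold changes of −4.18 to −2.69, in Arhgap20, Kirrel3, Aoc3, Rerg, Lrrc17, Sparcl1, Cdh26, and Dynap. Of these, Aoc3 encodes an amine oxidase of the adipocyte and smooth muscle cell surface (−3.38) and Sparcl1 a matricellular protein (−2.76).

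**Figure D2:**
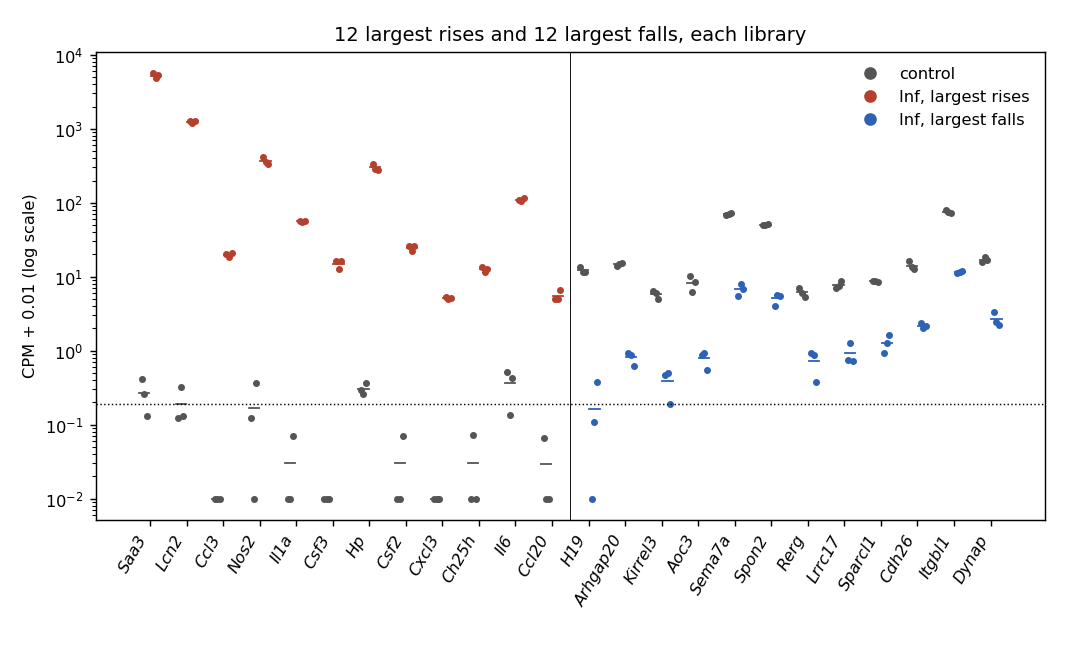
Level, in each library, of the 12 genes with the largest rises and the 12 with the largest falls among genes that averaged 5 CPM or more in either group, as CPM + 0.01 on a log scale. Points are libraries (control in gray, Inf in red for rises and blue for falls), short lines are means of 3 libraries, and the dotted line marks 3 counts in a control library. The groups do not overlap for any of the 24 genes, and 7 of the 12 rising genes lie under the dotted line in every control library.

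Receptors for the 3 cytokines were expressed without Inf. With Inf, the rises included the second TNF receptor, the IL-1 receptor chains, proteins that restrain IL-1 signaling, and several adaptors and kinases. No IL-17 receptor chain was called. The shares of each list raised and lowered, given below in parentheses, are to be read against 16.3% and 15.3% of all tested genes. They cover only genes that passed the filter on low counts. Genes silent in control pass this filter only when high in another condition, which favors raised shares in lists with such genes. Of 22 tested genes for receptors and adaptors, 10 rose and 0 fell (45.5% raised, 0% lowered), with a median log2 fold change of 0.20. The TNF receptor gene Tnfrsf1b had 50.5, 47.8, and 49.99 CPM in control and 120.0, 116, and 114 CPM with Inf (log2 fold change 1.24, SE 0.051, adjusted p = 7.1e-19), whereas Tnfrsf1a had 165, 168, and 179 CPM in control and 194, 182, and 191 CPM with Inf, and its log2 fold change of 0.15 was under the threshold of 0.25 (adjusted p = 0.009). Il1rap, the shared accessory chain of IL-1 receptors, had 64.2, 61.5, and 65.7 CPM in control and 168, 165, and 155 CPM with Inf (log2 fold change 1.35, SE 0.053, adjusted p = 2.1e-19), and Il1r1 rose less (0.45). Il1rn, the secreted IL-1 receptor antagonist, rose from 1.60 ± 0.46 CPM in control to 6.21 ± 0.54 CPM with Inf (1.94), and Irak3, an inhibitory member of the IL-1 receptor-associated kinases, from 1.11 ± 0.23 CPM in control to 3.96 ± 0.73 CPM with Inf (1.82; SD, n = 3 each). Of the kinases next to the receptors, Irak2 (0.31) and the adaptor Myd88 (0.33) rose slightly, and Irak1 (−0.15) and Irak4 (−0.03) were not called.

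The IL-17 receptor chains Il17ra (−0.03, adjusted p = 0.88), Il17rc (0.20, adjusted p = 0.009), and Il17rd (0.21, adjusted p = 0.14) were not called. Without Inf replicate 3, Il17rd was called, with a log2 fold change of 0.33 (adjusted p = 0.015). Traf3ip2, which encodes the IL-17 adaptor Act1, had 13.5, 12.7, and 15.7 CPM in control and 27.9, 28.2, and 28.1 CPM with Inf (log2 fold change 1.01, SE 0.095, adjusted p = 3.7e-10), with no overlap. Traf2, an adaptor of TNF receptors, rose to a similar degree (0.90), and Tradd, Ripk1, Traf6, Map3k7, Tab1, and Tab2 were not called (−0.10 to 0.19). Map3k8, a kinase that links IκB kinase to the ERK pathway, had 3.31, 2.98, and 2.82 CPM in control and 18.7, 19.6, and 18.1 CPM with Inf (log2 fold change 2.63, SE 0.12, adjusted p = 1.3e-17), the largest rise in this list.

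NF-κB subunits rose together with the inhibitors and feedback regulators of NF-κB, with a median log2 fold change of 0.64 for the subunits, 1.67 for the IκB proteins, and 2.32 for the feedback regulators. Of 25 tested genes for subunits and regulators, 18 were upregulated and 1 was downregulated (72.0% raised, against 16.3% of all tested genes), and the median log2 fold change was 1.15. All 5 subunits were upregulated, from Rela (0.39) and Rel (0.60) to Nfkb2 (0.64), Relb (1.15), and Nfkb1, which had 197, 188, and 202 CPM in control and 471, 466, and 459 CPM with Inf (log2 fold change 1.25, SE 0.042, adjusted p = 5.6e-21). All 6 IκB proteins were upregulated. Nfkbia, which encodes IκBα, had 39.5, 36.3, and 32.8 CPM in control and 282, 249, and 279 CPM with Inf (log2 fold change 2.90, SE 0.060, adjusted p = 1.8e-26), and Nfkbiz, which encodes the nuclear IκBζ, had 35.9, 34.8, and 30.1 CPM in control and 288, 258, and 257 CPM with Inf (log2 fold change 2.99, SE 0.082, adjusted p = 9.0e-16). For both, every Inf library was more than 6 times as high as every control library, and the nuclear IκB protein Bcl3 rose 4.21-fold. Nfkbid was scarce (0.39 ± 0.18 CPM in control and 0.96 ± 0.17 CPM with Inf; SD, n = 3 each), and its call was lost without control replicate 2 (adjusted p = 0.12), without Inf replicate 1 (0.075), and without Inf replicate 2 (0.053).

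Among the feedback regulators, 5 of 8 were upregulated. Zc3h12a, the ribonuclease regnase-1, which degrades inflammatory mRNAs, had 11.4, 10.7, and 13.7 CPM in control and 228, 216, and 224 CPM with Inf (log2 fold change 4.22, SE 0.072, adjusted p = 1.5e-28). Tnfaip3, the ubiquitin-editing enzyme A20, had 11.3, 13.9, and 11.6 CPM in control and 90.6, 82.8, and 78.6 CPM with Inf (log2 fold change 2.78, SE 0.084, adjusted p = 3.5e-22), and its partner Tnip1 had 40.2, 37.8, and 41.3 CPM in control and 148, 140.3, and 146 CPM with Inf (log2 fold change 1.86, SE 0.054, adjusted p = 8.6e-23). For these 3 genes, the spread within each group was small beside the difference. Tnip3, a related A20-binding protein, had 0.17, 0.12, and 0.48 CPM in control and 20.2, 19.8, and 20.9 CPM with Inf (log2 fold change 6.25, SE 0.21, adjusted p = 6.8e-21), and Traf1 rose from 1.18 ± 0.39 CPM in control to 10.5 ± 0.99 CPM with Inf (SD, n = 3 each). Cyld (0.20), Tnip2 (0.09), and Otulin (0.00) were not called.

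The core IκB kinase genes Chuk (0.16), Ikbkb (0.17), and Ikbkg (0.22) were not called. Ikbkg was called without control replicate 3 (log2 fold change 0.26) and without Inf replicate 3 (0.27). The related kinase Ikbke had 10.7, 8.75, and 10.02 CPM in control and 57.2, 53.4, and 53.4 CPM with Inf (log2 fold change 2.47, SE 0.083, adjusted p = 4.3e-21), and Tbk1 rose less (0.40). Map3k14, the NF-κB-inducing kinase of the noncanonical pathway, was the sole downregulated gene of the list, with 38.1, 34.2, and 35.7 CPM in control and 22.8, 20.5, and 19.2 CPM with Inf (log2 fold change −0.79, SE 0.081, adjusted p = 1.8e-09).

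**Figure D3:**
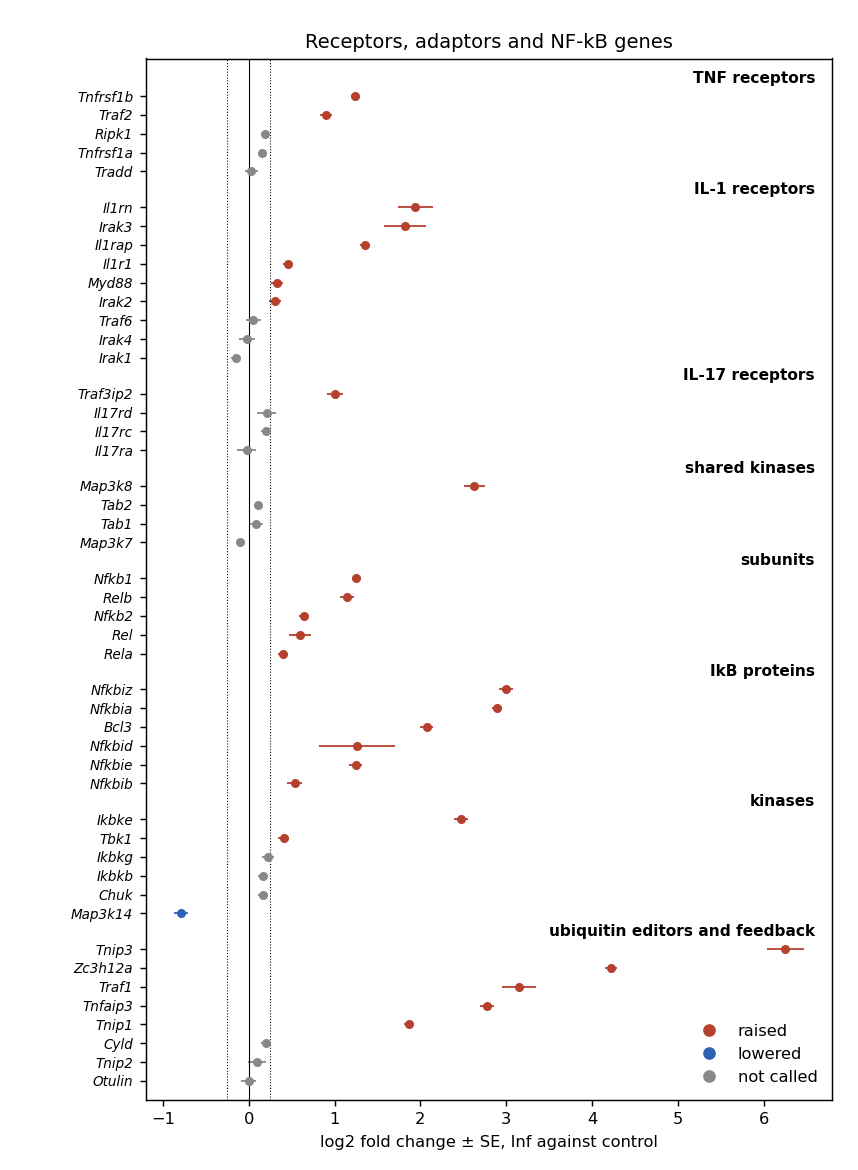
Log2 fold change of Inf against control (x axis) with its SE, as defined in the text, for every tested gene of the receptor and adaptor list and of the NF-κB list, grouped by role. The SE is too small for genes with few control counts, such as Tnip3. Red points are upregulated, blue are downregulated, gray are not called, and dotted lines mark the threshold of 0.25 in each direction. Feedback regulators and IκB proteins lie farther to the right than receptors, with Tnip3 at 6.25 and Map3k14 alone to the left at −0.79.

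Several genes with large rises carry a sequence that matches the NF-κB (κB) consensus close to the transcription start, and the following stretches show where it lies. They are from the RefSeq table for GRCm38.p6, run from 100 bases before to 20 bases after the start on the strand of the gene, and show the match in capitals. The genes are those named here that rose more than 4-fold and have a match within this stretch. Since a match was needed for a gene to be shown, the set does not show how common matches are among genes with large rises. The set need not be complete, because windows on a chromosome were left out of it. The build differs from the GRCm39 used for the counts, so the stretches were matched by gene symbol.

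Cxcl1 (chr5:90891145-90891264, plus strand), Cxcl3 (chr5:90786001-90786120, plus strand), Ccl20 (chr1:83116666-83116785, plus strand), Il6 (chr5:30013014-30013133, plus strand), Nfkbia (chr12:55492628-55492747, minus strand), Tnfaip3 (chr10:19015391-19015510, minus strand), Tnip3 (chr6:65590298-65590417, plus strand), Bcl3 (chr7:19822736-19822855, minus strand), Sod2 (chr17:13007739-13007858, plus strand), and Ier3 (chr17:35821613-35821732, plus strand) read as follows.
Cxcl1: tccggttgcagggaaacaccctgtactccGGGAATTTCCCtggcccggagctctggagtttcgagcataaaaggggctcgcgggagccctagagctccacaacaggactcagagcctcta
Cxcl3: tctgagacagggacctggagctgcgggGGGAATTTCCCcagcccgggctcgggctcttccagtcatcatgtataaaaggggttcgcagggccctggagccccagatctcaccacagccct
Ccl20: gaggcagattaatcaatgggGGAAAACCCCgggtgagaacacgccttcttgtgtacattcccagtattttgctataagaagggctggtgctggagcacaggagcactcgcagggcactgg
Il6: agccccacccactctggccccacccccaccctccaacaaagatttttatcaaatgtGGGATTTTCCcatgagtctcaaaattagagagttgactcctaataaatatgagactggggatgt
Nfkbia: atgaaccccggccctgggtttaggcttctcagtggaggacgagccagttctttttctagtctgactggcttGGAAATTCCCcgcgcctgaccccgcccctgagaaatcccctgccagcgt
Tnfaip3: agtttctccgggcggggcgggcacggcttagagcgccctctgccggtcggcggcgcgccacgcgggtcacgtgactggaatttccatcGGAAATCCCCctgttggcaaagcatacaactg
Tnip3: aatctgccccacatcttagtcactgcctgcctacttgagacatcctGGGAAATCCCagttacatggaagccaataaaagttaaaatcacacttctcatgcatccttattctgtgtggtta
Bcl3: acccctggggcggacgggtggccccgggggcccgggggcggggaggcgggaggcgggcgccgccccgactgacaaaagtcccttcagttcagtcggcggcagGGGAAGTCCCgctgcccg
Sod2: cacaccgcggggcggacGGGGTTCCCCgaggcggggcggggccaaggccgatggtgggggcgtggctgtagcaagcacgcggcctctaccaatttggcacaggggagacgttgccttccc
Ier3: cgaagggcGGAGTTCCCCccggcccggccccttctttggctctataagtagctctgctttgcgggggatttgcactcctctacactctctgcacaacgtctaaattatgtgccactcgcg

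The match begins 71 bases before the start in Cxcl1 and 73 bases before it in Cxcl3, neighboring genes of the same chemokine cluster, and in both the capitals are 2 overlapping matches. It begins 44 bases before the start in Il6, 29 in Nfkbia, 54 in Tnip3, 80 in Ccl20, 83 in Sod2, 92 in Ier3, and 12 in Tnfaip3, and lies just after the start in Bcl3. On either strand, the κB consensus was found in 4.51% of all 32851 promoter windows of 300 bases and in 5.14% of the genes with a window. Of the 25 tested NF-κB genes, 21 had a window and 10 of these held a match (Bcl3, Cyld, Nfkb2, Nfkbia, Nfkbid, Nfkbie, Rel, Tnfaip3, Tnip1, and Tnip3). Of these, Cyld was not called. Counts varied among other lists with many raised genes. Matches were found in 6 of 17 genes with a window for MHC class I and the immunoproteasome and in 2 of 10 acute phase genes. They were found in 0 of 7 antimicrobial, 0 of 11 prostaglandin, and 2 of 29 glycolysis and hypoxia genes. Within the 100 bases before the start, a match was found in 1.50% of all windows. A match shows only that these letters are present. A comparison of all upregulated genes with other genes was void, since 70.5% of the upregulated and 67.8% of all tested genes had a window, fewer than the 80% required.

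Chemokine and cytokine genes rose in most cases, and ligands for neutrophils and monocytes reached the highest levels. Of 41 listed chemokine genes, 22 passed the filter on low counts, and 5 of these had 3 or fewer counts in every control library. Of the 22 tested genes, 18 rose and 0 fell (81.8%, against 16.3% of all tested genes), a share that the filter favors. The median log2 fold change was 3.57, or 3.22 with undetected controls set at their bound. Cxcl5, a neutrophil chemokine, had 25.5, 17.9, and 19.1 CPM in control and 3846, 3974, and 4152 CPM with Inf (log2 fold change 7.58, SE 0.12, adjusted p = 3.7e-12). Cxcl1, another ligand of CXCR2, had 7.54, 6.95, and 6.78 CPM in control and 1275, 1263, and 1407 CPM with Inf (log2 fold change 7.53, SE 0.065, adjusted p = 3.7e-36). Ccl2, the main monocyte chemokine, had 73.6, 66.4, and 61.2 CPM in control and 1937, 1741, and 1935 CPM with Inf (log2 fold change 4.80, SE 0.059, adjusted p = 9.4e-28), and the related Ccl7 had 36.8, 41.2, and 34.6 CPM in control and 742, 706, and 798 CPM with Inf (log2 fold change 4.32, SE 0.057, adjusted p = 6.1e-31). Each Inf library exceeded each control library more than 15-fold for these 4 genes. The 4 chemokine genes that were not called were Ccl25, Ccl27a, Ccl28, and Cxcl12, the homeostatic CXCR4 ligand, which had 334, 349, and 339 CPM in control and 332, 358, and 339 CPM with Inf (0.01). The summed level of the 22 genes was 678 CPM in control and 9533 CPM with Inf.

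Of 25 listed interleukins and colony-stimulating factors, 16 passed the filter, and 5 of these had 3 or fewer counts in every control library. Of the 16 tested genes, 12 were upregulated and 0 were downregulated (75% raised, 0% lowered), with a median log2 fold change of 1.71. They include Il1a, Csf2, Csf3, and Il6, with the values given above, and 4 of the 5 tested members of the IL-1 family. Il33, an alarmin of that family, had 0.57, 0.99, and 0.78 CPM in control and 3.85, 5.07, and 5.03 CPM with Inf (2.58), and Il18 was not called (0.30). Lif, a member of the IL-6 family, rose from 8.61 ± 0.97 CPM in control to 114 ± 2.50 CPM with Inf (SD, n = 3 each), and Csf1, the macrophage colony-stimulating factor, from 683 ± 29.1 CPM in control to 1151 ± 42.6 CPM with Inf (SD, n = 3 each). The 12 genes thus ranged from rises below 2-fold to transcripts seen with Inf and hardly at all in control. Of the genes for the added cytokines, Il1b had at most 4 counts and Tnf at most 3 in any Inf library. Neither gene passed the filter on low counts, and Ifnb1, which encodes interferon-β, had at most 2 counts in any of the 6 libraries.

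Of 23 listed acute phase genes, 12 passed the filter on low counts, and 5 of these had 3 or fewer counts in every control library. All 12 tested genes were upregulated, with a median log2 fold change of 6.48, or 2.94 with undetected controls at their bound. Because genes silent in control pass the filter only when high elsewhere, this share is partly set by the filter. With a filter at a mean of 50 counts, 7 were tested, and all 7 were upregulated. Besides Saa3, Lcn2, and Hp, Steap4, a metalloreductase of the plasma membrane and endosomes, had 0.34, 0.50, and 0.72 CPM in control and 41.9, 41.6, and 38.8 CPM with Inf (log2 fold change 6.28, SE 0.15, adjusted p = 9.2e-25). Of 17 listed antimicrobial genes, 7 passed the filter, and 2 of these had 3 or fewer counts in every library of control or of Inf. Of the 7 tested genes, 4 rose and 0 fell (57.1% raised, 0% lowered), a share that the filter favors. With a filter at a mean of 50 counts, 2 rose. The 4 include Lcn2, which is also in the acute phase list. They also include the protease inhibitor Slpi, with 8.34, 7.57, and 7.44 CPM in control and 217, 208, and 241 CPM with Inf (log2 fold change 4.83, SE 0.072, adjusted p = 3.7e-30). The lysozyme genes Lyz1 (−0.13) and Lyz2 (0.13) were not called.

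Complement rose in its central component and its first proteases. C3 had 5.83, 6.57, and 5.88 CPM in control and 833, 745, and 644 CPM with Inf (log2 fold change 6.93, SE 0.11, adjusted p = 2.1e-15), the classical pathway protease genes C1s1 and C1ra rose 8.41-fold and 4.72-fold, and Serping1, the C1 inhibitor, rose 4.30-fold. In all, 7 of 15 tested complement genes rose and 2 fell (46.7% raised, 13.3% lowered). Of the 50-mers in the longest transcript, C1ra shares 50.8% and C1s1 24.3% with other genes, so their counts are uncertain.

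Genes that rose in nitric oxide and prostaglandin E2 synthesis included Nos2, Ptges, and Ptgs2. The arginine transporter Slc7a2 had 3.26, 2.73, and 2.58 CPM in control and 148, 146, and 120.1 CPM with Inf (log2 fold change 5.59, SE 0.098, adjusted p = 4.7e-27), and Ass1, which regenerates arginine, rose 3.15-fold, although 55.3% of its 50-mers are shared. Acod1, which makes itaconate, had 3 or fewer counts in each control library and 5.18, 5.84, and 6.06 CPM with Inf (at least 31.8-fold higher). Of 18 genes of nitric oxide, arginine, and polyamine metabolism, 10 rose and 4 fell (55.6% raised, 22.2% lowered). The 4 that fell were Slc7a1, another arginine transporter (−0.71), and the polyamine enzymes Amd1 (−0.44), Srm (−0.61), and Sms (−0.78). The prostaglandin E synthase Ptges had 107, 105, and 111 CPM in control and 466, 428, and 439 CPM with Inf (log2 fold change 2.05, SE 0.048, adjusted p = 3.1e-25), and the inducible cyclooxygenase Ptgs2 had 138, 132, and 142 CPM in control and 418, 367, and 353 CPM with Inf (log2 fold change 1.46, SE 0.052, adjusted p = 4.7e-20). Of 13 prostaglandin genes, 5 rose and 3 fell (38.5% raised, 23.1% lowered).

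Interferon-stimulated genes rose broadly but moderately, and MHC class I genes rose with them. Of 38 tested interferon-stimulated genes, 35 were upregulated and 0 were downregulated (92.1%, against 16.3%), with a median log2 fold change of 1.05. Ifit1, an RNA-binding antiviral protein, had 55.3, 62.3, and 91.6 CPM in control and 298, 179, and 252 CPM with Inf (log2 fold change 1.80, SE 0.24, adjusted p = 0.00028). Zbp1, a nucleic acid sensor, had 4.97, 6.33, and 10.6 CPM in control and 45.7, 33.0, and 41.0 CPM with Inf (log2 fold change 2.45, SE 0.23, adjusted p = 1.1e-05), and the guanylate-binding protein gene Gbp3 had 19.3, 21.8, and 29.4 CPM in control and 110.1, 78.3, and 100.2 CPM with Inf (log2 fold change 2.03, SE 0.20, adjusted p = 3.0e-05). These 3 genes had larger standard errors than Cxcl5, Cxcl1, Ccl2, and Ccl7, with control replicate 3 the highest control library and Inf replicate 2 the lowest Inf library for all 3, and the groups did not overlap. The median of the list was 0.91 to 1.28 when each of the 6 libraries was omitted in turn. Irf1 (0.14), Mx1 (0.44), and Oasl1 (−0.04) were the 3 genes not called.

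Of 20 tested genes of MHC class I and the immunoproteasome, 14 rose and 0 fell (70% raised, 0% lowered, median 0.59). Nlrc5, the transactivator of MHC class I genes, had 17.1, 18.5, and 24.3 CPM in control and 46.9, 37.0, and 38.9 CPM with Inf (log2 fold change 1.03, SE 0.15, adjusted p = 8.9e-05). The nonclassical class I genes H2-T22 (2.82), H2-T23 (1.49), and H2-Q4 (1.45) rose most, but they share 35.8%, 14.96%, and 22.03% of their 50-mers with other genes, so reads cannot be assigned to them with certainty.

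Among genes of leukocyte adhesion and costimulation, 5 of 11 tested genes rose and 1 fell (45.5% raised, 9.09% lowered). Vcam1, which binds leukocyte integrins, had 224, 238, and 241 CPM in control and 554, 554, and 570.2 CPM with Inf (log2 fold change 1.25, SE 0.042, adjusted p = 4.9e-21), and Alcam fell from 111 ± 5.27 CPM in control to 75.4 ± 0.90 CPM with Inf (SD, n = 3 each). With a filter at a mean of 50 counts, 2 genes of this list rose, and with only the 6 libraries in the fit, 3 did. Of 24 survival and death receptor genes, 12 rose and 2 fell (50% raised, 8.33% lowered). The death receptor Fas had 11.5, 11.1, and 11.9 CPM in control and 119, 119, and 132 CPM with Inf (log2 fold change 3.42, SE 0.069, adjusted p = 7.2e-27), and the apoptosis inhibitor Birc3 (1.24), the kinase Ripk2 (1.65), and the inflammatory caspase Casp4 (1.22) also rose. Without control replicate 2, 1 gene of this list was lowered.

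Of 28 AP-1, C/EBP, and early response factors, 15 rose and 7 fell (53.6% raised, 25% lowered). Cebpd, a C/EBP factor of the acute phase response, had 38.3, 33.1, and 34.0 CPM in control and 366, 282, and 341 CPM with Inf (log2 fold change 3.23, SE 0.11, adjusted p = 2.7e-10), and Cebpb rose from 19.5 ± 1.51 CPM in control to 62.9 ± 8.88 CPM with Inf (SD, n = 3 each). Ier3 had 36.6, 29.6, and 34.4 CPM in control and 216, 189.7, and 215 CPM with Inf (log2 fold change 2.62, SE 0.11, adjusted p = 1.3e-09), and Socs3, an inhibitor of cytokine receptor signaling, rose 4.48-fold. Every Inf library exceeded every control library for these 4 genes.

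Among genes of antioxidant defense and iron storage, the superoxide dismutases Sod2 and Sod3 and the ferritin gene Fth1 rose. Sod2, the mitochondrial enzyme, had 68.3, 71.9, and 66.7 CPM in control and 601, 553, and 583 CPM with Inf (log2 fold change 3.07, SE 0.047, adjusted p = 9.0e-30), and the extracellular Sod3 had 269.8, 222, and 248 CPM in control and 611, 541, and 565 CPM with Inf (log2 fold change 1.22, SE 0.087, adjusted p = 3.5e-07). Of 24 oxidative stress and NRF2 target genes, 10 rose and 1 fell (41.7% raised, 4.17% lowered, median 0.12), and the fall was not called without control replicate 2, without Inf replicate 1, or without Inf replicate 3 (0 lowered in each). Nfe2l2, which encodes NRF2, rose 1.98-fold. Fth1, the ferritin heavy chain, had 1899, 1792, and 1828 CPM in control and 5421, 4753, and 5098 CPM with Inf (log2 fold change 1.47, SE 0.041, adjusted p = 3.9e-23). The iron importer Slc11a2 (1.94) and the metal-binding Mt1 (1.74) rose, whereas Slc40a1, the iron exporter ferroportin, fell from 21.5 ± 1.39 CPM in control to 7.71 ± 1.27 CPM with Inf (SD, n = 3 each; −1.47). Of 16 metallothionein, zinc, and iron genes, 9 rose and 2 fell (56.2% raised, 12.5% lowered).

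Of 30 tested identifiers of glycolysis and hypoxia genes, 22 rose and 1 fell (73.3% raised, against 16.3%), with a median log2 fold change of 0.65. All but 4 of the rises were below 2-fold, among them Gapdh (0.78), Ldha (0.64), Pgk1 (0.66), Hk2 (0.96), and the glucose transporter Slc2a1 (0.66). Epas1, which encodes HIF-2α, had 5.31, 4.84, and 5.58 CPM in control and 23.9, 18.9, and 17.2 CPM with Inf (log2 fold change 1.92, SE 0.14, adjusted p = 1.3e-12), and the mitophagy receptor Bnip3 (1.37, with 21.9% of 50-mers shared), the peptide hormone Adm (1.06), and Ankrd37 (1.02) made up the other 3. The single downregulated gene was Pfkfb4 (−0.32).

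**Figure D4:**
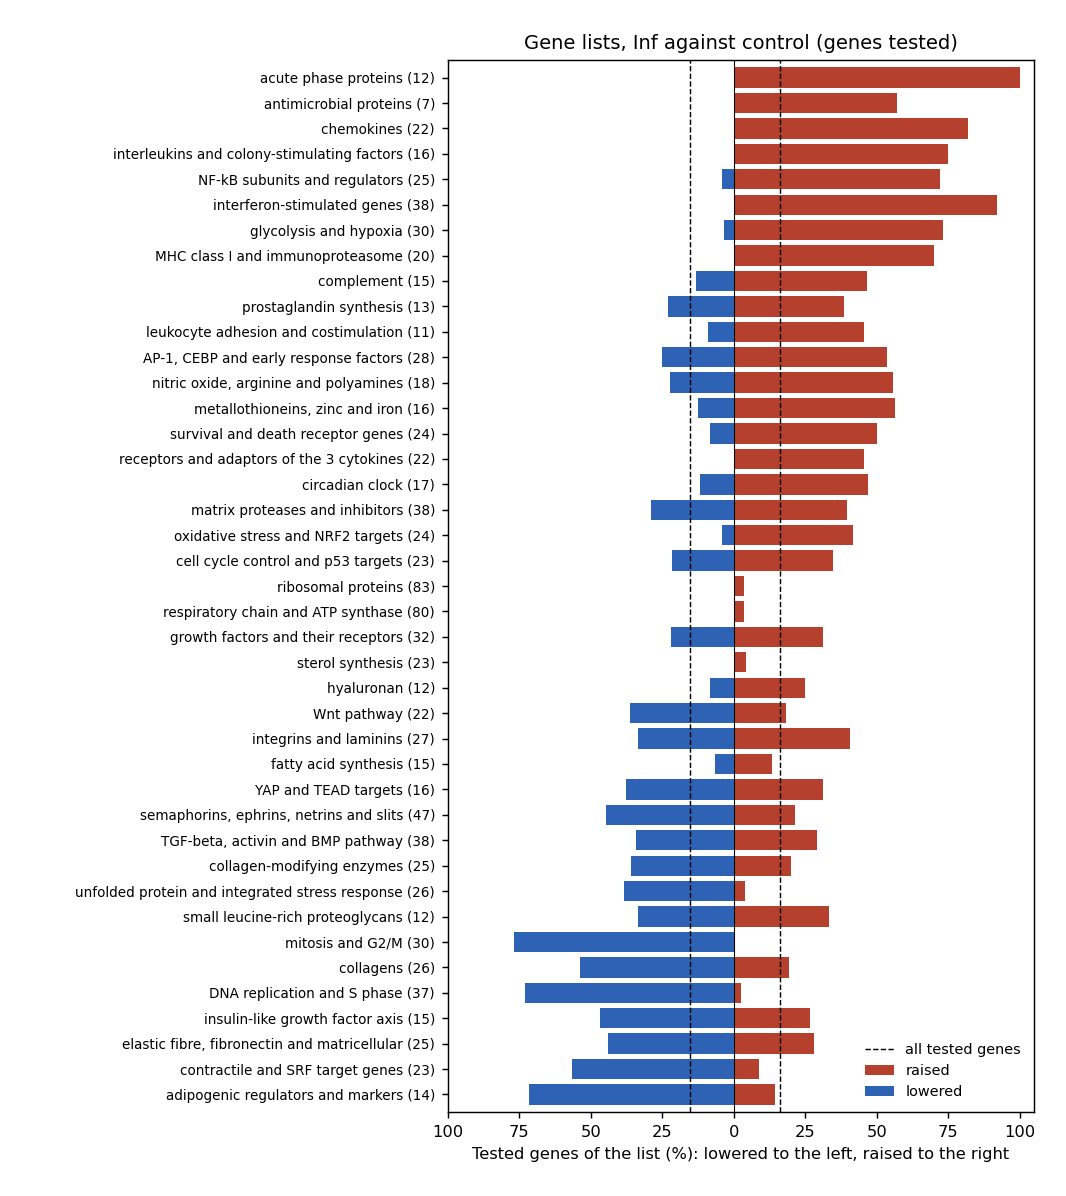
Share of the tested genes of each list that was upregulated (red, to the right) or downregulated (blue, to the left) by Inf, in percent, with lists ordered by their median log2 fold change and the number of tested genes in parentheses. Dashed lines mark the shares among all tested genes, 16.3% and 15.3%. Acute phase, interferon-stimulated, and chemokine genes extend farthest to the right, and mitosis, DNA replication, and adipogenic genes farthest to the left.

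Matrix metalloproteases of the stromelysin and collagenase groups were strongly upregulated, while the plasminogen activator Plau and several ADAMTS proteases fell. Mmp3, stromelysin-1, had 25.1, 21.5, and 23.9 CPM in control and 1479, 1343, and 1302 CPM with Inf (log2 fold change 5.87, SE 0.078, adjusted p = 4.9e-21), Mmp13, a collagenase, had 0.63, 0.68, and 0.96 CPM in control and 116, 108, and 101 CPM with Inf (log2 fold change 7.15, SE 0.12, adjusted p = 7.5e-29), and Mmp10, stromelysin-2, had 0.46, 0.25, and 0.48 CPM in control and 27.2, 24.2, and 24.7 CPM with Inf (log2 fold change 5.97, SE 0.19, adjusted p = 9.8e-22). The groups were separated by more than 40-fold for each of the 3. Mmp12, the macrophage elastase, had 3 or fewer counts in each control library and 10.4, 7.89, and 6.61 CPM with Inf (at least 46.4-fold higher). Of 38 tested proteases and inhibitors, 15 rose and 11 fell (39.5% raised, 28.9% lowered). Plau fell from 19.3 ± 0.36 CPM in control to 6.76 ± 1.05 CPM with Inf (SD, n = 3 each). Of the aggrecan-cleaving proteases, Adamts4 rose (1.72) and Adamts5 fell (−0.83). Among the 4 tested inhibitors, 1 rose, Timp1 (0.76), and 2 fell, Timp2 (−0.44) and Timp3 (−1.93).

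Collagen genes fell more often than they rose, and all 3 tested chains of collagen VI were among those that fell. Of 26 tested collagen genes, 14 were downregulated and 5 were upregulated (53.8% lowered, against 15.3% of all tested genes), with a median log2 fold change of −0.32. Col6a2 had 1013, 895, and 1020.0 CPM in control and 355, 347, and 313 CPM with Inf (log2 fold change −1.53, SE 0.052, adjusted p = 4.7e-18), and Col6a3 had 363, 306, and 404 CPM in control and 137, 130.3, and 91.1 CPM with Inf (log2 fold change −1.58, SE 0.17, adjusted p = 7.4e-05). The fibrillar chains Col1a1 (3893 ± 470.4 CPM in control and 2493 ± 207 CPM with Inf) and Col1a2 (5541 ± 427 CPM in control and 3813 ± 266 CPM with Inf; SD, n = 3 each) fell (−0.64 and −0.54), and Col3a1 was not called, with 1752, 1647, and 1800.3 CPM in control and 1807, 1794, and 1562 CPM with Inf (log2 fold change −0.01, adjusted p = 0.89). The largest fall among collagens was in Col15a1, a scarce basement membrane collagen, from 4.67 ± 0.063 CPM in control to 0.57 ± 0.25 CPM with Inf (SD, n = 3 each). Col5a3, a chain of collagen V, went the other way, with 87.5, 72.7, and 89.7 CPM in control and 268, 241, and 202 CPM with Inf (log2 fold change 1.51, SE 0.099, adjusted p = 1.1e-07). The summed level of the 26 genes was 19058 CPM in control and 13614 CPM with Inf.

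Collagen-modifying enzymes changed in both directions, with 9 of 25 lowered and 5 raised (20% raised, 36% lowered). The lysyl oxidase-like genes Loxl3 (−1.06) and Loxl4 (−0.84) fell, as did the prolyl hydroxylase chain P4ha3 (−0.93), while P4ha2 had 111, 114, and 123 CPM in control and 296, 289, and 284 CPM with Inf (log2 fold change 1.32, SE 0.046, adjusted p = 1.1e-20), and Loxl2 rose from 0.65 ± 0.36 CPM in control to 3.39 ± 0.26 CPM with Inf (SD, n = 3 each). Small leucine-rich proteoglycans also moved apart, with 4 of 12 raised and 4 lowered (33.3% raised, 33.3% lowered). Decorin (Dcn), which binds collagen fibrils, had 102, 108, and 99.7 CPM in control and 1708, 1722, and 1839 CPM with Inf (log2 fold change 4.09, SE 0.046, adjusted p = 2.8e-33), and lumican (Lum) rose from 2.25 ± 0.30 CPM in control to 22.4 ± 1.26 CPM with Inf. In contrast, osteoglycin (Ogn) fell from 130.03 ± 7.48 CPM in control to 31.0 ± 3.90 CPM with Inf, fibromodulin (Fmod) from 4.05 ± 0.56 CPM in control to 0.49 ± 0.14 CPM with Inf, and asporin (Aspn) from 177 ± 14.5 CPM in control to 46.8 ± 1.68 CPM with Inf (SD, n = 3 each). The groups did not overlap for any of these 5 genes.

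Of 25 elastic fiber, fibronectin, and matricellular genes, 11 fell and 7 rose (28% raised, 44% lowered). Periostin (Postn) had 446, 412, and 426 CPM in control and 135, 135, and 128 CPM with Inf (log2 fold change −1.69, SE 0.045, adjusted p = 1.3e-23), and the elastic fiber protein fibulin 5 (Fbln5) fell from 152 ± 1.47 CPM in control to 58.3 ± 2.99 CPM with Inf. Thrombospondin 1 (Thbs1) rose from 821 ± 48.5 CPM in control to 2172 ± 226 CPM with Inf (SD, n = 3 each). The median of this list was −0.41 and moved with the filter, to −0.16 at a mean of 50 counts and −0.19 without a filter, and was −0.20 without Inf replicate 1. Of 12 hyaluronan genes (25% raised, 8.33% lowered), 3 rose, among them the hyaluronan-binding protein gene Tnfaip6 (0.66) and the depolymerase Cemip (1.18), and 1 fell, Hmmr (−0.33).

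Contractile genes and targets of serum response factor (SRF) fell as a group, with 13 of 23 lowered and 2 raised (56.5% lowered, against 15.3%) and a median log2 fold change of −0.47. Myl9, a myosin light chain, had 146, 127, and 150.2 CPM in control and 73.6, 73.0, and 80.4 CPM with Inf (log2 fold change −0.90, SE 0.058, adjusted p = 4.6e-14). The focal adhesion protein vinculin (Vcl) had 318, 286, and 327 CPM in control and 197, 191, and 152 CPM with Inf (log2 fold change −0.79, SE 0.080, adjusted p = 2.9e-06), and tropomyosin 2 (Tpm2) fell from 102 ± 1.76 CPM in control to 62.04 ± 3.50 CPM with Inf (SD, n = 3 each). The nonmuscle myosin heavy chain Myh9 also fell (−0.70), whereas the transgelin relative Tagln2 (0.76) and desmin (Des, 0.89) were the 2 that rose. Of 16 targets of YAP and TEAD, 5 rose and 6 fell (31.2% raised, 37.5% lowered), and those that fell included the secreted Ccn2 (−0.52).

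Growth factor pathways changed in a mixed way, with large changes in single ligands and binding proteins. In the insulin-like growth factor axis, 7 of 15 genes fell and 4 rose (26.7% raised, 46.7% lowered). Igf1 had 34.1, 30.6, and 32.2 CPM in control and 7.51, 7.79, and 6.18 CPM with Inf (log2 fold change −2.17, SE 0.10, adjusted p = 1.3e-17), and Igfbp3, the main binding protein of IGF in serum, had 1.77, 1.61, and 1.56 CPM in control and 44.9, 42.2, and 44.7 CPM with Inf (log2 fold change 4.73, SE 0.11, adjusted p = 1.5e-25). Every Inf library was below every control library for the ligand and above for the binding protein. Igfbp5, another binding protein, fell (−1.76). In the TGF-β, activin, and BMP list, 11 of 38 rose and 13 fell (28.9% raised, 34.2% lowered). The activin antagonist follistatin (Fst) had 31.3, 32.0, and 34.1 CPM in control and 67.2, 82.6, and 81.8 CPM with Inf (log2 fold change 1.25, SE 0.069, adjusted p = 1.3e-15), and Inhbb, an activin subunit, fell from 99.9 ± 2.37 CPM in control to 29.0 ± 2.05 CPM with Inf (SD, n = 3 each; −1.78).

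Among 32 growth factors and receptors, 10 rose and 7 fell (31.2% raised, 21.9% lowered). Fgf7, the keratinocyte growth factor, had 165, 164, and 154 CPM in control and 397, 419.6, and 434 CPM with Inf (log2 fold change 1.37, SE 0.045, adjusted p = 2.1e-21), the lymphangiogenic Vegfc rose 2.59-fold, and the lipase inhibitor Angptl4 rose 3.36-fold. The neurotrophin Bdnf fell from 64.3 ± 0.31 CPM in control to 26.8 ± 0.75 CPM with Inf (SD, n = 3 each). Of 22 Wnt pathway genes, 8 fell and 4 rose (18.2% raised, 36.4% lowered). The receptor Fzd4 fell (−1.69), and the receptor Lgr4 (0.86) and its ligand Rspo3 (0.70) rose.

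Guidance genes fell more often than they rose, with 21 of 47 tested semaphorins, ephrins, netrins, slits, and their receptors lowered and 10 raised (21.3% raised, 44.7% lowered). The receptor neuropilin 1 (Nrp1) had 169, 169, and 185 CPM in control and 34.1, 37.2, and 32.1 CPM with Inf (log2 fold change −2.33, SE 0.060, adjusted p = 3.9e-24), and its ligand Sema3a had 83.5, 88.9, and 89.1 CPM in control and 17.3, 19.7, and 19.4 CPM with Inf (log2 fold change −2.21, SE 0.068, adjusted p = 4.5e-22). Another class 3 semaphorin, Sema3c, moved in the other direction, with 7.60, 7.26, and 8.16 CPM in control and 87.3, 85.9, and 77.8 CPM with Inf (log2 fold change 3.45, SE 0.085, adjusted p = 1.7e-24). Of 27 integrins and laminins, 11 rose and 9 fell (40.7% raised, 33.3% lowered), with Lama4 (1.24) and Itga7 (1.04) raised and Itga6 (−0.96) lowered.

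Tested genes of the adipogenic list fell in most cases. Of 14 tested adipogenic regulators and markers, 10 were downregulated and 2 were upregulated (71.4% lowered, against 15.3%), with a median log2 fold change of −0.60. Pparg, the master regulator of adipogenesis, had 18.97, 17.4, and 17.9 CPM in control and 6.65, 8.96, and 7.52 CPM with Inf (log2 fold change −1.22, SE 0.11, adjusted p = 1.2e-10), and Dlk1, a preadipocyte surface protein, had 1651, 1552, and 1691 CPM in control and 801, 730.0, and 789.6 CPM with Inf (log2 fold change −1.08, SE 0.043, adjusted p = 4.4e-19). The 2 that rose were the fatty acid-binding protein gene Fabp4, from 11.3 ± 0.79 CPM in control to 30.1 ± 1.84 CPM with Inf, and Fgf10, from 45.5 ± 2.78 CPM in control to 94.8 ± 3.76 CPM with Inf (SD, n = 3 each). Adipoq, Lep, and Plin1, genes of the mature adipocyte, did not pass the filter on low counts. With a filter at a mean of 50 counts, 6 genes of the list were lowered.

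Cell cycle genes fell together by small amounts. Of 37 tested genes of DNA replication and S phase, 27 were downregulated and 1 was upregulated (73.0% lowered, against 15.3%), with a median log2 fold change of −0.33. Mcm5, a subunit of the replicative helicase, had 278, 273, and 276 CPM in control and 189, 189, and 188 CPM with Inf (log2 fold change −0.55, SE 0.041, adjusted p = 1.3e-12), and Mcm2 (−0.58) and Mcm6 (−0.58) fell alike. The exception was the thymidylate synthase Tyms, with 68.9, 76.7, and 68.96 CPM in control and 108, 105, and 123 CPM with Inf (log2 fold change 0.65, SE 0.059, adjusted p = 1.9e-10). Of 30 mitosis and G2/M genes, 23 fell and 0 rose (0% raised, 76.7% lowered, median −0.31), among them cyclin A2 (Ccna2), with 235, 257, and 242 CPM in control and 165, 149.6, and 157 CPM with Inf (log2 fold change −0.64, SE 0.048, adjusted p = 1.7e-12). Ccnd1, the cyclin of G1 progression, had 664, 691, and 710.0 CPM in control and 242, 265, and 236 CPM with Inf (log2 fold change −1.47, SE 0.045, adjusted p = 3.9e-22). In the list of cell cycle control and p53 targets, 8 of 23 rose and 5 fell (34.8% raised, 21.7% lowered), with Ccng2 (1.10) and Gadd45b (1.16) raised and Gadd45g (−1.72) lowered.

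Of 26 genes of the unfolded protein and integrated stress responses, 10 fell and 1 rose (3.85% raised, 38.5% lowered). The falls included targets of ATF4, with Trib3 at 73.4, 72.1, and 80.2 CPM in control and 40.0, 38.8, and 38.0 CPM with Inf (log2 fold change −0.95, SE 0.065, adjusted p = 2.2e-13), Chac1 (−0.96), Ddit3 (−0.62), and the serine synthesis enzyme Phgdh (−0.68), for which 63.1% of 50-mers are shared with other genes. Without control replicate 3 and without Inf replicate 2, 2 genes of this list were raised. Of 17 clock genes, 8 rose and 2 fell (47.1% raised, 11.8% lowered), and the core activator Bmal1 had 50.3, 47.4, and 48.2 CPM in control and 77.8, 83.3, and 82.3 CPM with Inf (log2 fold change 0.74, SE 0.056, adjusted p = 2.8e-12).

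Housekeeping and lipid synthesis lists showed few calls. Of 83 ribosomal protein genes, 3 rose and 0 fell (3.61% raised, 0% lowered, median 0.07), and of 80 genes of the respiratory chain and ATP synthase, 3 rose and 0 fell (3.75% raised, 0% lowered, median 0.05), of which Ndufv3 was the largest (0.53). Of 23 sterol synthesis genes, 1 rose, Sc5d (0.44), and of 15 fatty acid synthesis genes, 2 rose, Acsl1 (0.67) and Acsl4 (0.38), and 1 fell, Acaca (−0.25, with 52.6% of 50-mers shared). These low counts depended on single libraries. Without Inf replicate 2, 12 ribosomal and 11 respiratory chain genes were raised, and without Inf replicate 3, 1 of each was raised. The fall of Acaca was not called without control replicate 1, control replicate 3, or Inf replicate 3, with a filter at a mean of 50 counts, or with only the 6 libraries in the fit (−0.25 to −0.18, under the threshold of 0.25 in size), and 2 sterol synthesis genes were raised without Inf replicate 1.

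On a scale of CPM per kilobase of the longest transcript, the largest gains were mostly in secreted proteins and ferritin. This scale compares levels of different genes only roughly, since the longest annotated transcript need not be the one expressed, and the ranks depend on it. Saa3 went from 0.12 to 2384 CPM per kilobase, Fth1 from 892 to 2469, Cxcl5 from 11.2 to 2142, Ccl2 from 61.2 to 1707, and Lcn2 from 0.13 to 911. The others among the 10 largest gains were Ifitm3, Ccl7, osteopontin (Spp1), Mmp3, and Cxcl1. The largest losses included structural genes, with vimentin (Vim) from 1239 to 797, Col1a2 from 1036 to 713, and biglycan (Bgn) from 1363 to 1078 CPM per kilobase. The others were Col1a1, S100a10, the water channel Aqp1, Fbln2, Dlk1, Actg1, and the predicted gene Gm12715. Actg1 and Gm12715 share 56.7% and 92.8% of their 50-mers with other genes, so their counts are uncertain.

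The identity of the cells was checked with marker genes. All 10 fibroblast markers were detected, with a summed level of 14655 to 16703 CPM in control and 12659 to 13676 CPM with Inf. Of these, Dcn, Lum, Pdgfra (0.97), and Pdgfrb (0.84) rose, Col1a1, Col1a2, Thy1 (−0.72), and Vim (−0.64) fell, and Col3a1 and S100a4 (−0.08, with 56.3% of 50-mers shared) were not called. Markers of 5 other cell types were scarce. The summed level of 10 macrophage markers was 20.4 to 23.9 CPM in control and 46.9 to 61.7 CPM with Inf, mostly from Cd14, which rose from 14.9 ± 1.49 CPM in control to 44.7 ± 6.81 CPM with Inf (SD, n = 3 each), while Tyrobp had 0 counts in all 12 libraries. Counts never exceeded 5 in any library for 5 of these 10 markers. The 8 T cell markers summed to 2.36 to 2.64 CPM in control and 1.70 to 3.21 CPM with Inf, with 0 counts of Cd3d, Cd3e, Cd3g, Cd8a, and Cd2. The 8 endothelial markers summed to 0.74 to 0.93 CPM in control and 1.31 to 2.26 CPM with Inf, with 0 counts of Emcn. The 8 keratinocyte markers summed to 9.92 to 10.6 CPM in control and 8.31 to 8.91 CPM with Inf, with 0 counts of Krt1, Krt5, and Epcam. The 8 neutrophil markers summed to 0 to 0.19 CPM in control and 2.12 to 2.44 CPM with Inf, mostly from S100a8, with 0 counts of Mpo and Ngp.

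Whether the response recurs in other libraries was examined by comparing IL-4/13 + Inf with IL-4/13, groups that share no library with the comparison above and only the estimate of spread in the common fit. With IL-4/13 present, 1971 genes (13.3%) rose with Inf and 1627 (11.0%) fell. Of the 2420 genes that rose against control, 1583 (65.4%) also rose with IL-4/13 present, which is 80.3% of the latter list, and 2 fell. Of the 2266 downregulated genes, 1244 (54.9%) were also downregulated, which is 76.5% of the latter list, and 4 were upregulated. The log2 fold change had the same sign in 96.0% of the upregulated and 96.2% of the downregulated genes, where 49.7% of all tested genes had a positive sign with IL-4/13 present. Across genes, which are not independent replicates and which share the culture medium and the sequencing platform, the log2 fold changes had a Pearson correlation of 0.871 and a Spearman correlation of 0.710.

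Of the genes described above, Saa3 (13.41 with IL-4/13 present, against 14.27 without), Lcn2 (11.71 against 12.71), Mmp3 (5.53 against 5.87), and Il6 (7.49 against 8.24) rose on both backgrounds, and Spon2 (−3.76 against −3.29) and Sema7a (−2.76 against −3.36) fell on both. With IL-4/13 present, Inf upregulated 17 of 22 chemokine genes (1 lowered), 11 of 12 acute phase genes (0 lowered), 35 of 38 interferon-stimulated genes (0 lowered), and 21 of 30 glycolysis and hypoxia genes (1 lowered), and downregulated 13 of 26 collagen genes (3 raised) and 13 of 23 contractile genes (1 raised). It lowered 18 of 37 DNA replication and 13 of 30 mitosis genes, beside 27 and 23 without IL-4/13, and whether these counts differ was not tested.

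The log2 response to Inf differed with IL-4/13, by the interaction term of the same fit, for 461 genes (3.11% of those tested). Among the genes upregulated against control, the response was smaller with IL-4/13 for 181 and larger for 19, and among the downregulated genes, the change was less negative for 150 and more negative for 16. The control and Inf libraries enter both the choice of these genes and the interaction, so these counts are no independent result.

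**Figure D5:**
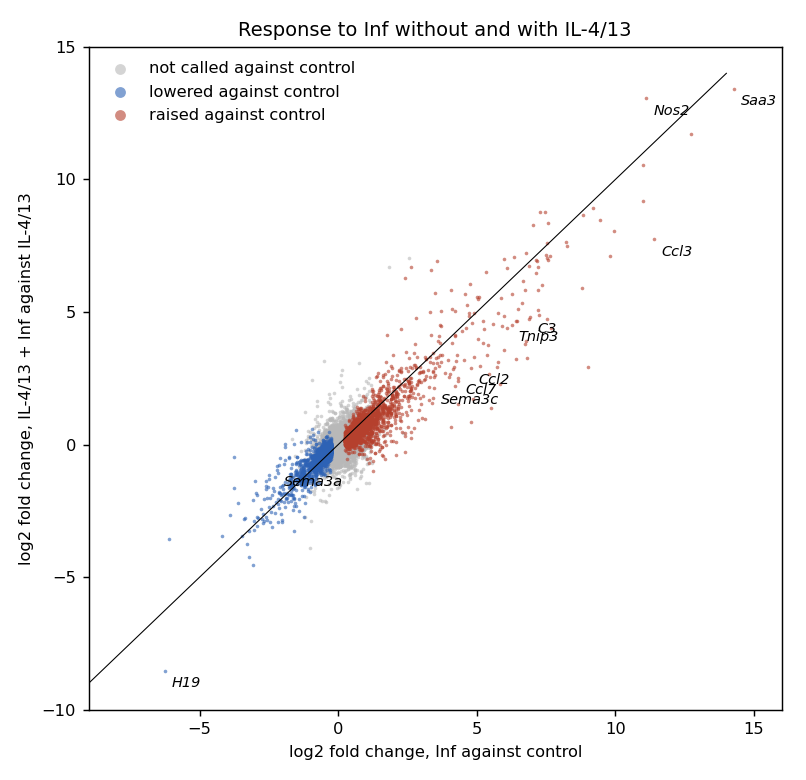
Log2 fold change of Inf against control (x axis) and of IL-4/13 + Inf against IL-4/13 (y axis) for the 14810 tested genes, with 3 libraries in each of the 4 groups and the line of equal response. Red and blue points are up- and downregulated against control. Most colored points lie in the quadrants of equal sign, and Ccl2, Ccl7, C3, and Sema3c lie below the line.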

How the data were processed

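Bulk RNA-seq libraries of 3T3-L1 cells were analyzed from the count table deposited by the authors, which holds whole-number counts of reads per gene, not normalized. Per the labels, polyadenylated RNA was made into libraries with an Illumina stranded mRNA kit, and the submitters' processing notes name STAR, featureCounts, and the GRCm39 build. Versions, the annotation, and the strand setting are not given in the sources used here. If reads in shared sequence were dropped or split, genes with near-identical copies are undercounted or mixed, so the share of 50-mers that the longest transcript has in common with other genes is given for such genes.

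Of 56941 genes in the table, 29236 had a count in these libraries and 14810 passed edgeR's filterByExpr (minimum count 10, minimum total 15). The 12 libraries were fitted together with 1 term per condition, TMM scaling, and robust quasi-likelihood dispersions, which leaves 8 residual degrees of freedom (R 4.3.3, edgeR 4.0.16, limma 3.58.1). P-values were adjusted over all tested genes by the Benjamini-Hochberg method. Members of 47 gene lists and the lists themselves were chosen with earlier results of these data known, so list counts and medians are descriptions, to be read against those of all tested genes. Named genes were the 12 largest rises and falls, up to 4 called genes of each list by size of change and the 10 largest gains and losses per kilobase, among genes that averaged 5 CPM or more in either group, and the receptor, NF-κB, and fibroblast marker lists in full. A few other list members were named after their values were seen, and 1 gene that the rule selected is not reported here. The interaction term compared the responses with and without IL-4/13. Promoter sequences were matched by symbol to RefSeq windows (GRCm38.p6), found for 10043 tested genes. Code was tested on simulated counts. Alternatives were DESeq2 1.42.0, other scalings, filters, and thresholds, a replicate block, the 6 libraries alone, and the omission of each library. Figures were drawn with matplotlib 3.10.9 (Python 3.11.15).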

Additional observations from a re-analysis of the deposited data

Results flagged for a closer look

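For 48 of the named genes, the log2 response to Inf differed with IL-4/13 by the interaction term of the fit across all genes (adjusted p below 0.05 in edgeR's quasi-likelihood test, difference beyond 0.25). Each value is the log2 response with IL-4/13 present minus that against control, and a negative value marks a lower response with IL-4/13. Because the same control and Inf libraries enter the choice of genes and the interaction, the direction of these differences is a description. Groups of 3 libraries are too small for a test of single samples that stand apart.

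Among 31 genes that Inf upregulated, the response was lower with IL-4/13. The largest such differences were in C3 (−2.12, with a response of 4.81 against 6.93), the monocyte chemokines Ccl2 (−1.91) and Ccl7 (−1.81), the A20-binding protein Tnip3 (−1.74), Sema3c (−1.32), Fabp4 (−1.14), and the arginine transporter Slc7a2 (−1.04). In the NF-κB pathway they were Bcl3 (−0.98), Tnfaip3 (−0.63), Il1rap (−0.62), Relb (−0.40), Nfkbia (−0.45), Nfkbie (−0.39), and Nfkb1 (−0.32), with Ripk2 (−0.49) and Fas (−0.37) among the death receptor genes and the chemokine Cxcl1 at −0.49. The secreted factors Angptl4 (−0.62), Adm (−0.61), Stc1 (−0.53), Fgf7 (−0.42), and Fgf10 (−0.32) also had lower responses. The others were Bnip3 (−0.44), the BMP target Id3 (−0.42), Ccng2 (−0.40), Mt1 (−0.37), Fth1 (−0.31), Sod2 (−0.28), Nfe2l2 (−0.26), Dcn (−0.26), and Ifitm3 (−0.25), for which 10.02% of 50-mers are shared with other genes. A lower log2 response is not always a lower level. C3 averaged 43.8 CPM with IL-4/13 and 1223 CPM with IL-4/13 + Inf, against 6.09 CPM in control and 741 CPM with Inf. Nfkb1 (857 and 465 CPM), Tnip3 (30.8 and 20.3 CPM), and Il1rap (240 and 162 CPM) were also higher with IL-4/13 + Inf than with Inf. Other genes were lower, among them Bcl3 (50.9 and 64.6 CPM), Tnfaip3 (62.7 and 84.0 CPM), Fabp4 (19.4 and 30.1 CPM), and Ripk2 (83.2 and 109 CPM). The paper reports higher expression of Ccl2 and Ccl7 with all the cytokines together than with Inf alone.

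Gstm1 (0.93, with 23.1% of 50-mers shared) and Ptgs2 (0.53) were upregulated and had higher responses with IL-4/13. Of the downregulated genes, Map3k14 (−0.49) and Postn (−0.42) had larger log2 falls with IL-4/13. Map3k14 averaged 57.1 CPM with IL-4/13 and 23.5 CPM with IL-4/13 + Inf, against 36.0 CPM in control and 20.8 CPM with Inf. The falls were smaller with IL-4/13 for Sema3a (1.25), Sema7a (0.60), Trib3 (0.54), Chac1 (0.52), Dlk1 (0.51), Alcam (0.46), Ccnd1 (0.45), Aqp1 (0.37), Phgdh (0.35, with 63.1% of 50-mers shared), Mcm6 (0.30), and Mcm2 (0.29). Ankrd1 differed by 0.65, with a response of −0.55 against control and 0.10 with IL-4/13. Il17rd was not called against control and differed by 0.69. Of the 48 differences, 37 were called under every alternative, and 11 were lost under at least 1 (Relb, Nfkbie, Fas, Fgf10, Ifitm3, Tnip3, Sema7a, Sod2, Nfe2l2, Dcn, and Id3).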

How the results depend on the processing

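The counts of upregulated and downregulated genes stayed within 1.5 times the reported 2420 and 2266 under every alternative to the normalization, filter, tool, and libraries. DESeq2 called 2296 and 2224, and library size alone as the scaling called 2241 and 2568, with 46.6% of calls upward in place of 51.6%. Leaving out 1 library at a time gave 2295 to 2478 and 2137 to 2324, and with IL-4/13 present 1773 to 1904 and 1446 to 1572. The counts moved with the fold threshold. Beyond a log2 fold change of 0.5, 1514 genes rose and 863 fell, and beyond 1, 786 and 309. With IL-4/13 present, these were 1201 and 733 at 0.5 and 630 and 306 at 1, and 2471 fell with no fold threshold. The share of promoter windows with a κB match was 1.50% within 100 bases of the start in place of 4.51%. No called named gene changed direction. Some list medians near 0 changed sign, among them small leucine-rich proteoglycans (0.17 at a mean of 50 counts), the Wnt pathway (0.15 without control replicate 1), and fatty acid synthesis (0.03 without Inf replicate 3), as did the median of all genes with library size alone (−0.02). Of the 204 called named genes, 7 lost their call under at least 1 alternative (Nfkbid, Tnfsf9, Acaca, Ndufb1, Ndufc2, Rpl37a, and Rpl13a).

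The labels number the replicates in each group, and nothing says that a number marks a shared culture. Deviations of same-numbered Inf and control libraries from their group means correlated at 0.034, −0.110, and −0.146. With 3 libraries per group, these values cannot decide whether the numbers mark shared cultures or batches. With the replicate number as a block, 2382 genes rose and 2237 fell (1923 and 1593 with IL-4/13 present), and 47 named genes had an interaction call.

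At 15869141 to 17343972 counts per control library, 88 upregulated genes had at most 3 counts in each control library, and their folds are bounds.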
